A study of Mus musculus with 15 samples.

Results

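The genes described here encode the proteins of the mitochondrial ribosome, read in mouse liver on an oligonucleotide array. They were taken as every gene with a symbol that begins with Mrpl or Mrps followed by a number, on probe sets annotated to that symbol alone. A gene with several probe sets was read at the set that was brightest on average over the 15 arrays. This gave 76 genes of the 18193 measured, of which 47 carried large-subunit symbols (Mrpl) and 29 small-subunit symbols (Mrps). All 76 entered every test, since no filter on dim genes was applied. They lie on 17 chromosomes, with 11 on chromosome 11 and 8 on chromosome 17.

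Mitochondria carry their own ribosome, which reads the few messenger RNAs made from mitochondrial DNA and so builds core subunits of the respiratory chain and of ATP synthase. Its ribosomal RNAs come from mitochondrial DNA, while its proteins are encoded in the nucleus, made in the cytosol and imported. The small subunit decodes the messenger, and the large subunit holds the peptidyl transferase centre and the exit tunnel, which opens towards the inner membrane. Liver is rich in mitochondria, and its oxidation of fatty acids, urea synthesis and glucose production all depend on them.

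The question behind the arrays was whether liver expression in males challenged by nutrition early in life recurs in their sons. IUGR F2 livers came from adult sons of males that were undernourished by 50% before birth, and ON F2 livers from adult sons of males that were overfed while suckling. IUGR F1 and ON F1 livers came from adult males exposed in these same ways, and control livers from control males. Each group had 3 arrays, each array held a pool of liver samples, and the 3 printed in each title is taken to be the number of livers pooled. Control pools are labelled as from first and second generation offspring, without the share of each. F1 and F2 could therefore not be set against controls of their own generation alone. Every comparison against control used the same 3 pools. Strain, age and litter are not given in the labels, nor which F1 males fathered the livers of an F2 pool. Whether pools of 1 group come from separate litters is not stated either. The p-values therefore reflect spread between these pools, and the spread between single mice is unknown. In whole tissue, fewer cells of a type and less RNA per cell cannot be told apart.

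The labelled tissue was checked against 9 measured hepatocyte markers, whose median level lay between 13.13 and 13.38 in the 15 pools, and whose median difference from the control mean lay between -0.0505 and 0.0384. Markers of other cell types differed between pools. In ON F2 pool 13 all 7 measured exocrine pancreas genes lay above the control range, with a median 4.29 above the control mean. Their summed linear level was 5993 there, between 1341 and 1345 in the other ON F2 pools, and between 1254 and 1762 in the pools of the other groups. In IUGR F1 pool 5, 8 of 9 muscle genes lay above the control range, with a median 0.612 above the control mean. The summed linear level of these muscle genes was 397.3 there and between 158.8 and 192.5 in the other pools. The clock gene Dbp, whose level follows the time of day, ranged from 5.30 to 10.71 and stood at 9.84 and 10.71 in ON F2 pools 13 and 14, at 9.77 and 9.08 in IUGR F1 pools 5 and 6, and at 10.07 in control pool 2. The ON F2 and control pools thus overlapped in Dbp. Array medians lay between 4.60 and 4.68, and the 3′ minus 5′ difference of the actin controls, which tracks RNA length, between 1.76 and 2.28. That difference was 1.95, 2.06 and 2.10 in ON F2 pools, against 1.94, 1.91 and 1.76 in control pools, so every ON F2 pool lay above every control pool, the closest by a small margin. With it as a covariate the ON F2 against control medians of the members described below were -0.14 in the large and -0.147 in the small subunit, in place of -0.151 and -0.172.

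The other marker lists were read in ON F2 against control. Of 10 Kupffer cell genes (liver macrophages), 8 lay higher, 3 of them at an unadjusted p under 0.05, with a median of 0.22. Endothelial genes lay higher in 4 of 8 (median -0.03), stellate cell genes in 2 of 8 (-0.08), bile duct genes in 4 of 7 (0.08) and lymphocyte genes in 3 of 8 (-0.11). Muscle genes lay higher in 3 of 9 (-0.02), red cell genes in 2 of 3 (0.09), hepatocyte genes in 6 of 9 (0.02) and pancreas genes in 7 of 7 (1.66). The high pancreas values were those of pool 13. No marker gene was called in this comparison (limma).

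Values are log2 levels made with RMA (robust multi-array average), which normalizes probes by quantiles before summarizing them, so a change is relative to the rest of the array. The summarized levels did not share a single distribution, since array medians ran from 4.6 to 4.68. Another quantile normalization of these levels moved the differences, as given below. A difference of levels is a log2 fold change with its standard error (SE) from limma, and SDs are over 3 pools. A gene is called changed at a Benjamini-Hochberg adjusted p under 0.05 over all 18193 genes. Levels are compared between pools and never between genes, since probes differ in brightness. The mean levels of the 76 probe sets lay between 6.75 and 10.37, and 5449 genes fell in that same range. The SD of a member over the 15 pools was between 0.061 and 0.19, with a median of 0.11, so all values below describe small differences.

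No mitochondrial ribosomal gene was called in any of the 10 tests: 8 pairwise comparisons, an interaction of lineage with generation and an F test across all groups. What stood out was a direction, since nearly every member lay lower in livers of ON F2 males than in control livers. The plot of subunit medians by pool shows this. The large-subunit median, as the difference from the control mean, was -0.18, -0.19 and -0.11 in ON F2 pools 13, 14 and 15, and the small-subunit median was -0.16, -0.21 and -0.11. In IUGR F2 pools 10, 11 and 12 the large-subunit median was -0.08, -0.03 and -0.08, and the small-subunit median -0.11, 0.02 and -0.05. Every ON F2 pool lay below all 3 control pools, whose medians ran from -0.02 to 0.02 for the large and from -0.04 to 0.04 for the small subunit. The F1 pools scattered around control, from -0.03 to 0.05 and -0.06 to 0.04 in IUGR F1 and from -0.05 to 0.05 and -0.10 to 0.07 in ON F1.

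**Figure D1:**
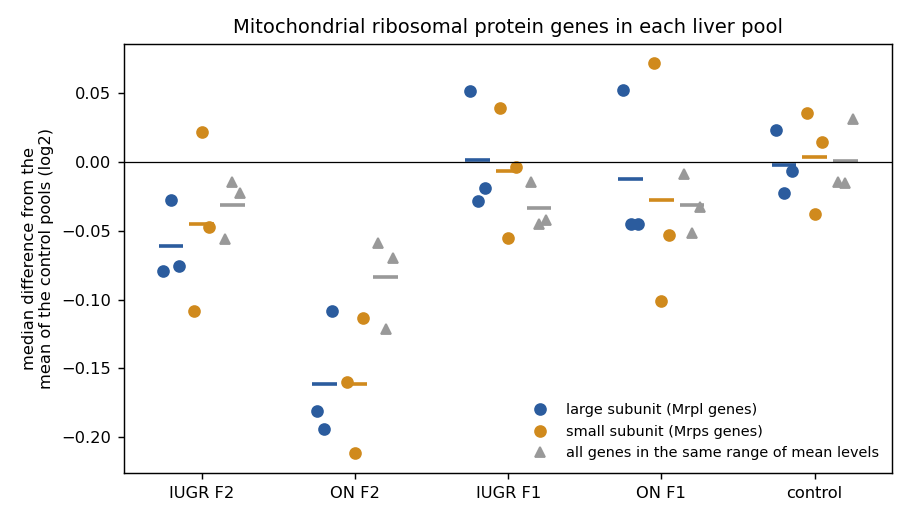
Median difference of the large-subunit genes (47), the small-subunit genes (29) and all genes in the same range of mean levels (5449) from the mean of the control pools, on the log2 scale, for each of the 15 pools. Points are pools and short lines are means of 3 pools; the 3 ON F2 pools lie lowest in the large subunit, between -0.19 and -0.11, and their level-matched genes lie between -0.12 and -0.06.

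In ON F2 against control, 74 of 76 members lay lower, 46 of 47 in the large and 28 of 29 in the small subunit, where 50.7% of all genes lay lower. The median difference was -0.15 in the large and -0.17 in the small subunit, which is 9.93% and 11.2% lower on the linear scale, against -0.003 over all genes. Genes in the same range of mean levels shared part of this direction, with 71.9% lower and a median of -0.085. No gene of the array was called here (0 of 18193, 0%, limma). At an unadjusted p under 0.05, 33 members were lower and 0 higher, while 9.26% of all genes were lower and 5.89% higher. In 48 members all 3 ON F2 pools lay below all 3 control pools, a pattern found in 12.1% of all genes and in 24.8% of the genes in the members' range of levels. The reverse, all ON F2 pools above all control pools, was found in 0 members and in 8.95% of all genes.

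In the large subunit, Mrpl47 and Mrpl17 had the smallest p. Mrpl47, a protein near the tunnel mouth, stood at 7.98, 8.03 and 8.09 in ON F2 pools 13, 14 and 15, against 8.41, 8.27 and 8.36 in control pools 1, 2 and 3. The groups did not overlap, and the difference was -0.31 ± 0.07 (SE, n = 3 pools each; limma adjusted p = 0.12), the smallest adjusted p of any member here. Mrpl17, which also borders the tunnel exit, stood at 9.24, 9.33 and 9.20 in ON F2 pools, against 9.56, 9.56 and 9.50 in control pools. Its groups lay apart as well, with a difference of -0.28 ± 0.07 (limma adjusted p = 0.134). Mrpl45, which tethers the ribosome to the inner membrane, stood at 7.20, 7.15 and 7.07 in ON F2 and at 7.56, 7.38 and 7.56 in control pools. That was the most negative difference of a member in this comparison, -0.36 ± 0.11, and it did not pass the test either (limma adjusted p = 0.177).

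The central protuberance, a crown of the large subunit that replaces its bacterial counterpart with proteins specific to mitochondria, includes Mrpl38. Mrpl38 stood at 8.50, 8.38 and 8.47 in ON F2 and at 8.91, 8.64 and 8.80 in control pools, again without overlap, a difference of -0.33 ± 0.09 (limma adjusted p = 0.147). Mrpl58, a peptidyl-tRNA hydrolase that became part of the large subunit and frees stalled ribosomes, stood at 8.84, 8.97 and 9.03 in ON F2, against 9.38, 9.12 and 9.20 in control pools. It too lay lower in every ON F2 pool, by -0.29 ± 0.08 (limma adjusted p = 0.158).

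In the small subunit, Mrps10 and Mrps18b led by p. Mrps10, a protein of the head of the small subunit, stood at 8.79, 8.62 and 8.91 in ON F2 and at 9.11, 9.15 and 9.07 in control pools. The difference was -0.34 ± 0.09 (limma adjusted p = 0.134). Mrps18b, a relative of bacterial S18, stood at 8.98, 8.96 and 8.97 in ON F2, against 9.34, 9.21 and 9.30 in control pools. Its ON F2 pools were the tightest of these genes, and the difference was -0.31 ± 0.08 (limma adjusted p = 0.138). The other relatives, Mrps18c and Mrps18a, differed by -0.11 ± 0.08 and -0.23 ± 0.13. Mrps14 and Mrps31, also in the head, differed by -0.25 ± 0.08 and -0.24 ± 0.08, each with all 3 ON F2 pools below control (limma adjusted p = 0.187 for both).

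Only Mrpl12 and Mrps9 did not lie lower in ON F2. Mrpl12, which forms the stalk that recruits translation factors and also binds the mitochondrial RNA polymerase, stood at 10.10, 10.04 and 10.08 in ON F2 and at 10.05, 10.04 and 10.09 in control pools. Those values overlapped throughout, and the difference was 0.02 ± 0.07, with a 95% interval from -0.14 to 0.17. With array medians subtracted its sign turned, to -0.0375. Mrps9 stood at 7.31, 7.32 and 7.56 in ON F2 and at 7.11, 7.38 and 7.27 in control pools. It had the largest standard error of all members, and the difference was 0.14 ± 0.14, with an interval from -0.17 to 0.45.

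**Figure D2:**
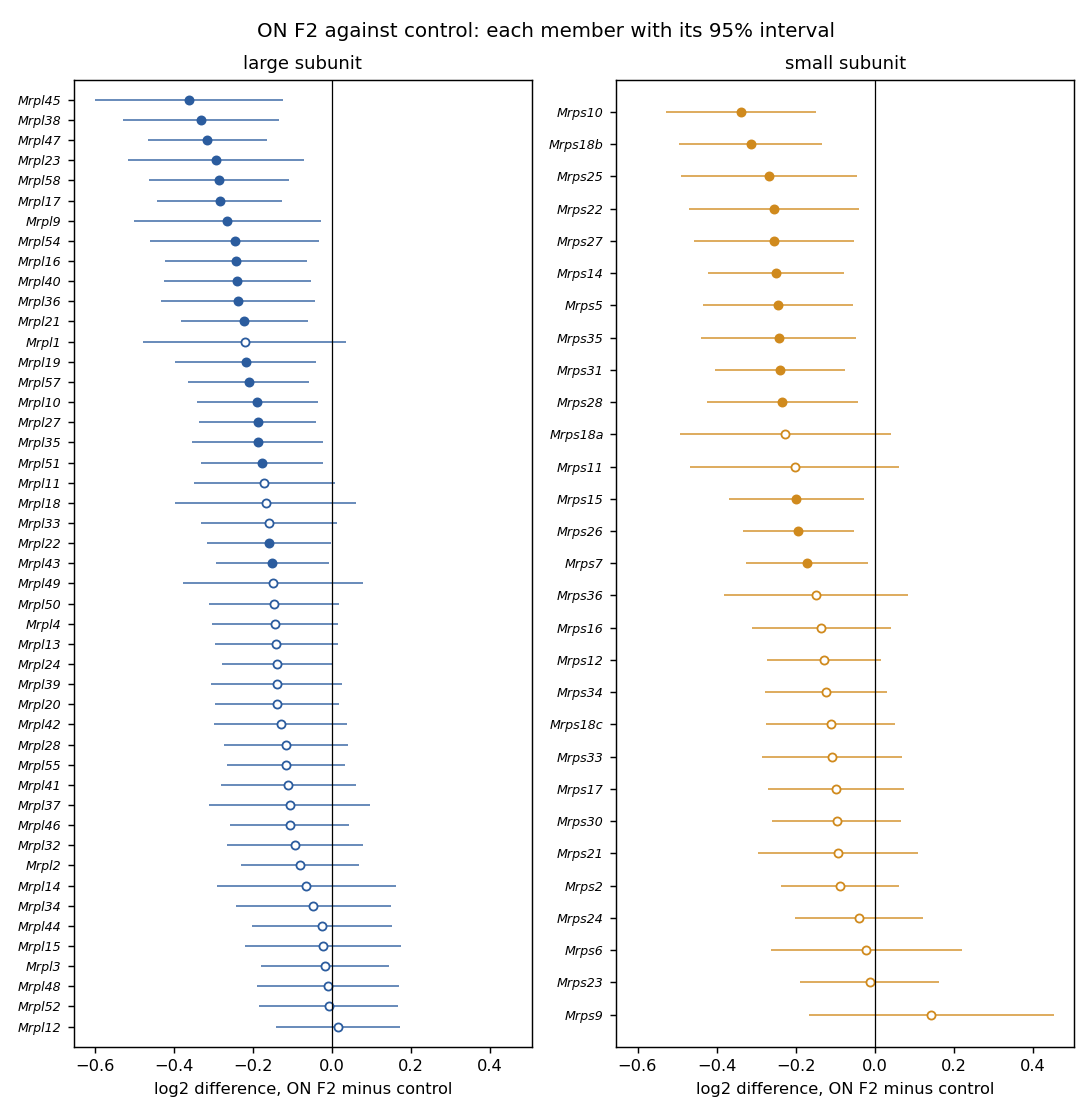
Log2 difference of each member, ON F2 minus control, with its 95% interval from limma, for the large subunit (left) and the small subunit (right). Filled points have an unadjusted p under 0.05 (33 members, all lower) and open points do not; 74 of 76 points lie left of 0 and none passed the adjusted threshold.

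The count of 33 moved with the settings. It was 49 with array medians subtracted and 10 after another round of quantile normalization, 16 without ON F2 pool 14, 18 without control pool 1 and 19 with the actin ratio as a covariate. Without pool 13, in which the pancreas transcripts were high, 71 members lay lower and 23 had an unadjusted p under 0.05. Without pools 5, 8 and 13 together, a setting added after seeing the data, 71 lay lower and 22 had such a p. With the Dbp level as a covariate 70 lay lower and 25 had such a p. Apart from these values, the part of other cell types or of the time of day in the result was not tested. Across the alternatives, 64 to 75 members lay lower, with the fewest after another quantile normalization. That setting brought the members' median to -0.0845 and that of the genes in their range of levels to -0.00578.

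Probe sets that were not chosen gave a weaker picture. The 42 genes with several probe sets had 80 further ones, of which 43 lay lower in ON F2 than in control. Among the 33 with a mean of at least 6, 23 lay lower, with a median of -0.124, and among the 47 dimmer ones 20 did, with a median of 0.022. For Mrps10 the other probe set, at a mean of 4.43, ran the opposite way (0.44 ± 0.13), and the mean of both was 0.0516. Mrpl38 had dim probe sets at 0.23 ± 0.09 and 0.19 ± 0.09, and Mrpl17 had probe sets at 0.22 ± 0.10 and -0.05 ± 0.16. Mrpl47, with the smallest p, had a dim one at 0.12 ± 0.10. With all probe sets of a gene averaged, the difference was -0.0752 for Mrpl47, in place of -0.315, and -0.0391 for Mrpl17, in place of -0.285. In all, 15 members had a further probe set of opposite sign with an unadjusted p under 0.05 on either probe set. Besides the 4 just named these were Mrpl19, Mrpl21, Mrpl35, Mrpl51, Mrpl54, Mrps5, Mrps11, Mrps14, Mrps15, Mrps26 and Mrps31, and the brightest such further set had a mean of 6.72. Mrps18b, Mrpl45 and Mrpl12 were read by a single probe set.

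The DNA around the members' transcription starts was searched for 6 motifs, among them those of factors known to act on genes of the mitochondrial ribosome. RefSeq promoter sequences of GRCm38.p6 matched 67 of the 76 members, each with 250 bases before the annotated start and 50 after it. The motif of ETS-family factors such as GABPA (CCGGAAG, either strand) was present in 25 of 67 (37.3%), 14 of 41 in the large and 11 of 26 in the small subunit, and in 9.93% of all 27025 promoters. The YY1 motif (AAGATGG) was present in 13 (19.4%, against 7.28% of all), and the NRF1 motif (GCGCATG) in 8 (11.9%, against 4.41%). The GC box GGGCGG was present in 34 (50.7%, against 38.2%), the E-box CACGTG in 5 (7.46%, against 8.09%) and the TATA box TATAAA in 5 (7.46%, against 15.7%). Among protein-coding genes, 17492 in all, the share was 12.9% for the ETS motif, 7.18% for YY1 and 5.4% for NRF1. It was 49.2% for the GC box, close to the 50.7% of members, 8.91% for the E-box and 14.8% for the TATA box. The ETS and YY1 motifs can share the letters AAG, but their matches overlapped in 0 members. ETS and GC box matches overlapped in 2, and no other motifs did. A match describes the letters of a window, not a bound site.

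The difference between ON F2 and control had a median of -0.16 over the 25 members that have the ETS motif and -0.148 over the 42 that do not. For NRF1 the medians were -0.174 over 8 and -0.149 over 59, and for YY1 -0.149 over 13 and -0.155 over 54. Any bearing of these motifs on the ON F2 difference was not tested. The promoters of 5 members are shown, 250 bases before the start and 30 after it, read 5′ to 3′ on the gene's strand, with matches to the ETS, NRF1 or YY1 motif in capitals. Mrpl17 (chr7:105811058-105811337, minus strand) and Mrps18b (chr17:35916411-35916690, minus strand) were among the 4 with the smallest p in ON F2 and hold the NRF1 motif, with an ETS motif in the shown stretch of Mrpl17. Mrpl27 (chr11:94653541-94653820, plus strand), which had the smallest p in the F test over all groups, holds the ETS motif. Mrpl47 (chr3:32736726-32737005, minus strand), with the smallest p in ON F2, and Mrpl12 (chr11:120484387-120484666, plus strand), which did not lie lower there, hold none of the 3.
Mrpl17: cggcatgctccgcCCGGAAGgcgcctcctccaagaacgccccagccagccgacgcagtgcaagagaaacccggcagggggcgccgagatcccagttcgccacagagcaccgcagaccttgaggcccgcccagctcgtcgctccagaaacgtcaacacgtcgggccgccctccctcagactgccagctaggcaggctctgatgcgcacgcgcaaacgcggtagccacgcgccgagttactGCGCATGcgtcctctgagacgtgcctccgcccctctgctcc
Mrps18b: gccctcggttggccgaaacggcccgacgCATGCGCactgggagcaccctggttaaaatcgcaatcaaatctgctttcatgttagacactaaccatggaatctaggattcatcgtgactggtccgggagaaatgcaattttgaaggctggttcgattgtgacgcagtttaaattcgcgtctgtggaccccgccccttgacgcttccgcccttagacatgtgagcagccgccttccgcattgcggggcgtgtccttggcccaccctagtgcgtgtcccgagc
Mrpl27: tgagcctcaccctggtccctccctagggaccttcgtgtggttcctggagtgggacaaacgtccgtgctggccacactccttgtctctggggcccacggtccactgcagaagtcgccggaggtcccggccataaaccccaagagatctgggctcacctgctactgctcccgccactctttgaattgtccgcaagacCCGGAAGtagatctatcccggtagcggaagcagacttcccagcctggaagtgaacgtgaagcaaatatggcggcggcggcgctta
Mrpl47: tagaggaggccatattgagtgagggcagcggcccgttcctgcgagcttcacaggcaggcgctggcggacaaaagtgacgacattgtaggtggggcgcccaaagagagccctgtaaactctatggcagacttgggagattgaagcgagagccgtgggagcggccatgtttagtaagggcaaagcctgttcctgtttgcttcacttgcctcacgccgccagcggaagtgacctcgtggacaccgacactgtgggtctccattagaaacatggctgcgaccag
Mrpl12: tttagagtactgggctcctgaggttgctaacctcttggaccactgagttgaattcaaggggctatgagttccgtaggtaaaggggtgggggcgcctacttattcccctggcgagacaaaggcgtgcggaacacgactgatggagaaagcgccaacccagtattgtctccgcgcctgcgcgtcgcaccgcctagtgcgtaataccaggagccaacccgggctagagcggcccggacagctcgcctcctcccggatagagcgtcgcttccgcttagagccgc

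**Figure D3:**
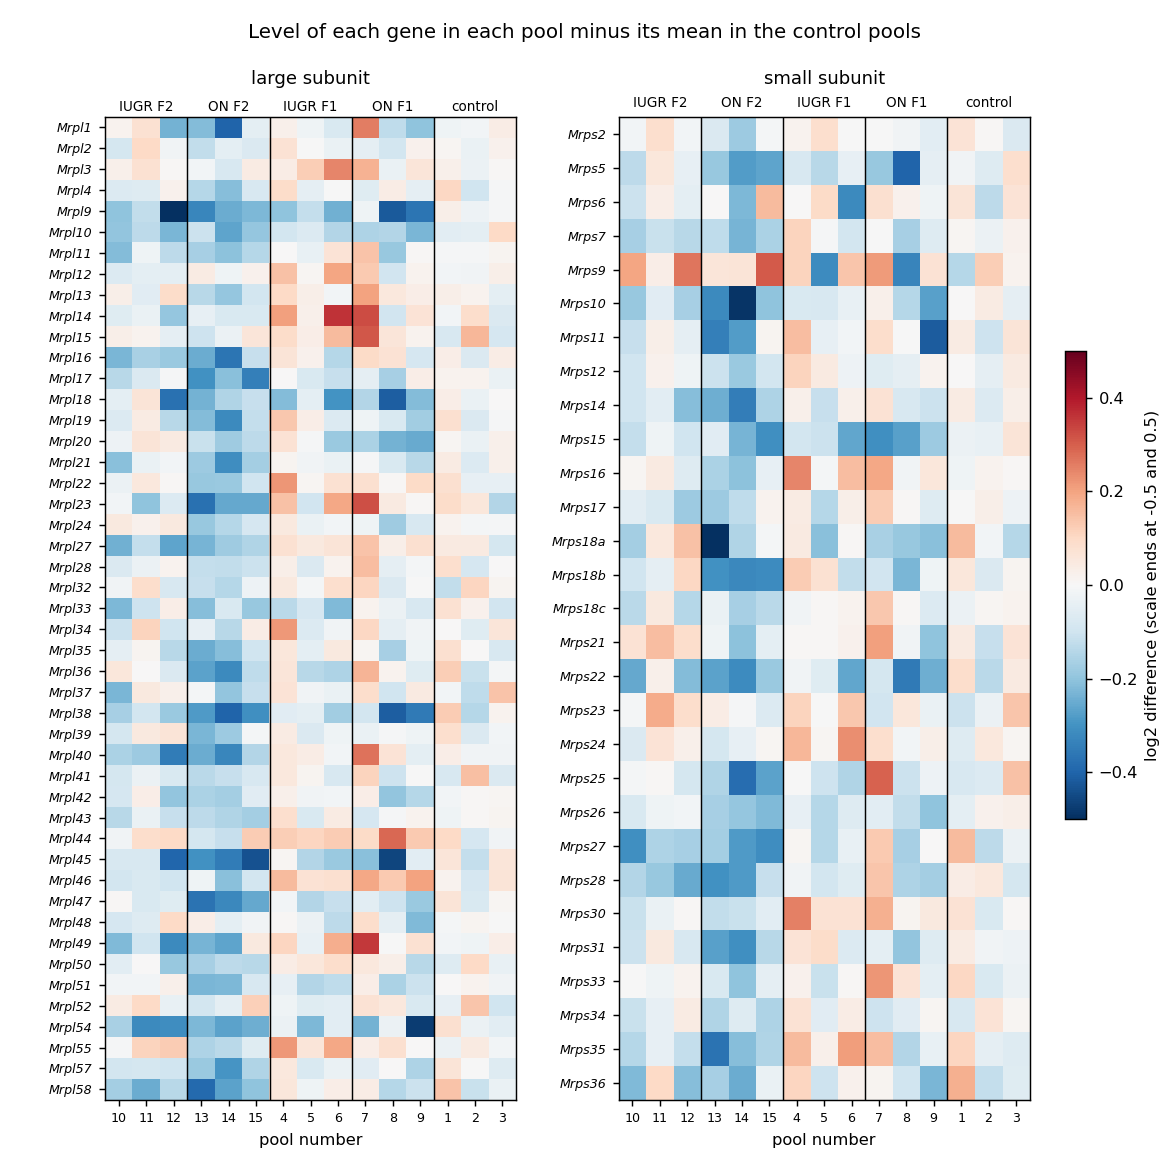
Level of each of the 76 members in each pool minus its mean in the control pools, on the log2 scale, with 47 large-subunit genes on the left and 29 small-subunit genes on the right. Blue is lower and red higher than the control mean, with colours ending at -0.5 and 0.5; in ON F2 pools 13, 14 and 15, 71, 75 and 64 of the 76 members lie below it.

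Against their fathers' generation, ON F2 livers also had the lower levels. In ON F2 against ON F1, 69 of 76 members lay lower, where 56.6% of all genes did. The median difference was -0.13 in the large and -0.09 in the small subunit, against -0.029 over all genes and -0.058 over those in the members' range of levels. No member was called (limma), while 261 of all genes were (1.43%). Among cell type markers, bile duct genes lay lower in 6 of 7 (median -0.17), of which Sox9 was called at -0.83 ± 0.17 (limma adjusted p = 0.0315), Kupffer cell genes lay higher in 9 of 10 (median 0.26) and pancreas genes in 7 of 7 (1.35). The high pancreas values were those of ON F2 pool 13. The part of these cell types in the members' difference was not tested. At an unadjusted p under 0.05, 23 members were lower and 0 higher, against 12.7% and 6.6% of all genes. Without overlap, 24 members lay lower and 0 higher (14% and 7.41% of all genes). Of the genes in the members' range of levels, 62.2% lay lower, 17.9% were lower at such a p and 19.5% without overlap. The members' own shares were 90.8%, 30.3% and 31.6%.

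The 4 members with the smallest p all belong to the large subunit. Mrpl27, next to the peptidyl transferase centre, stood at 10.06, 10.11 and 10.14 in ON F2 pools, against 10.43, 10.32 and 10.37 in ON F1 pools 7, 8 and 9. The groups did not overlap, and the difference was -0.27 ± 0.07 (limma adjusted p = 0.0628). Mrpl23, at the tunnel exit, stood at 8.72, 8.84 and 8.83 in ON F2, against 9.41, 9.13 and 9.10 in ON F1 pools. This was the most negative difference of a member in any comparison, -0.42 ± 0.10 (limma adjusted p = 0.0604). Mrpl46 and Mrpl40, both of the central protuberance, completed the set. Mrpl46 stood at 8.29, 8.10 and 8.22 in ON F2 and at 8.51, 8.44 and 8.51 in ON F1 pools, a difference of -0.28 ± 0.07 (limma adjusted p = 0.0604). Mrpl40 stood at 7.90, 7.82 and 8.00 in ON F2 and at 8.41, 8.21 and 8.09 in ON F1 pools, a difference of -0.34 ± 0.09 (limma adjusted p = 0.0664).

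These genes lay close to the threshold, and some settings carried them past it. All 4 were called when only genes with a mean of at least 5 were tested, with limma adjusted p between 0.0405 and 0.0475, and again with array medians subtracted (between 0.0429 and 0.0495). With the Dbp level as a covariate the count of members lower at an unadjusted p under 0.05 was 6 in place of 23, and over all genes 3 were called in place of 261. The differences themselves moved less: 57 of 76 members lay lower in that setting, with medians of -0.102 in the large and -0.0678 in the small subunit, and Mrpl23 differed by -0.37. ON F1 pools had Dbp at 5.40, 5.34 and 6.23, below all ON F2 pools (9.84, 10.71 and 6.54), so the level of this clock gene moved with the comparison. Without ON F1 pool 7 the count was 11, without ON F2 pool 13 it was 12, and without pool 14 it was 13.

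The 7 members that lay higher in ON F2 than in ON F1 all had 95% intervals that include 0. Mrps9 differed by 0.16 ± 0.14, Mrpl18 by 0.09 ± 0.11, Mrpl20 by 0.08 ± 0.07 and Mrps15, a small-subunit protein that binds the ribosomal RNA, by 0.05 ± 0.08. Mrpl48, Mrps23 and Mrpl9 differed by 0.05 ± 0.08, 0.01 ± 0.08 and 0.004 ± 0.11. Mrpl12 averaged 10.07 ± 0.03 in ON F2 and 10.08 ± 0.11 in ON F1 pools (SD, n = 3 each), and these pools overlapped. A further probe set gave the opposite sign, with an unadjusted p under 0.05 on either, in 9 members: Mrpl13, Mrpl17, Mrpl47, Mrpl51, Mrpl52, Mrpl58, Mrps10, Mrps14 and Mrps24. For Mrps24 that further set was bright, with a mean of 9.15, and differed by 0.38 ± 0.12, against -0.07 ± 0.08 for the chosen one.

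**Figure D4:**
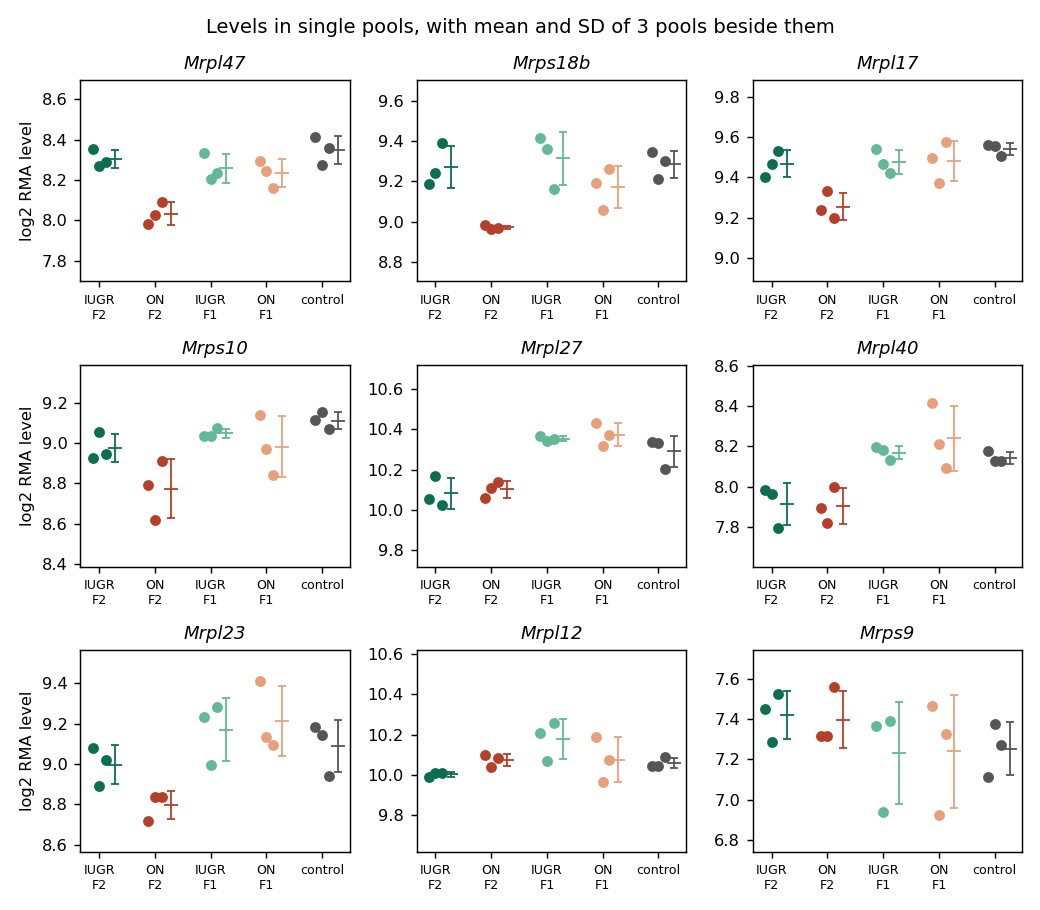
Log2 RMA levels of 9 members in single pools (points) with the mean and SD of 3 pools beside them, for IUGR F2, ON F2, IUGR F1, ON F1 and control; each panel spans 1 log2 unit, and panels are not comparable in height between genes. Mrpl47, Mrps18b, Mrpl17 and Mrps10 are lowest in ON F2, Mrpl27 and Mrpl40 are low in both F2 groups, and Mrpl12 and Mrps9 overlap between ON F2 and control.

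Between the sons, the IUGR lineage had the higher levels. In IUGR F2 against ON F2, 67 of 76 members lay higher and 9 lower, against 46.7% and 53.3% of all genes, with medians of 0.08 in the large and 0.11 in the small subunit (-0.011 over all genes, 0.052 over those in the members' range of levels). No member was called (limma), and 1 of all genes was (0.0055%). With an unadjusted p under 0.05, 15 members were higher and 0 lower, against 5.37% and 4.77% of all genes, and 23 lay higher without overlap (8.79% of all genes). Genes in the members' range of levels shared part of this direction, with 3588 of 5449 higher. Of these 5449 genes, 10.6% were higher at such a p and 16.6% without overlap, against 19.7% and 30.3% of members.

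Mrpl47 stood at 8.35, 8.27 and 8.29 in IUGR F2 pools 10, 11 and 12, against 7.98, 8.03 and 8.09 in ON F2 pools, a difference of 0.27 ± 0.07 (limma adjusted p = 0.245). Mrps18b stood at 9.19, 9.24 and 9.39 in IUGR F2, against 8.98, 8.96 and 8.97 in ON F2 pools, a difference of 0.30 ± 0.08 (limma adjusted p = 0.285). In both genes the IUGR F2 pools overlapped with control pools. Mrpl17 and Mrpl55 differed by 0.21 ± 0.07 and 0.19 ± 0.07, with all IUGR F2 pools above all ON F2 pools. With probe sets averaged per gene, Mrpl47 differed by 0.0429 and Mrpl17 by 0.0187. Markers moved here too: Kupffer cell genes lay lower in 10 of 10 (median -0.40) and pancreas genes in 7 of 7 (-1.45). The high pancreas values were those of ON F2 pool 13. The part of these cell types was not tested. At the other end, Mrpl12, Mrpl49, Mrpl27 and Mrpl14 had differences between -0.07 and -0.02, with errors of 0.07 to 0.11. The count of 15 fell to 4 with the Dbp level as a covariate, to 5 without ON F2 pool 14, to 6 after another quantile normalization and to 7 on the mean of each gene's probe sets.

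In IUGR F2 against control, 60 of 76 members lay lower, against 53.4% of all genes, with medians of -0.06 in the large and -0.04 in the small subunit (-0.010 over all genes, -0.029 over those in the members' range of levels). The small-subunit median was -0.0132 without IUGR F2 pool 10, -0.0779 without pool 11 and -0.00361 after another quantile normalization, where 44 members lay lower. Stellate cell genes lay lower in 8 of 8 (median -0.27) and Kupffer cell genes in 9 of 10 (-0.26), and their part was not tested. No gene was called (0 of 18193, 0%, limma), and 9 members were lower and 0 higher at an unadjusted p under 0.05 (4.55% and 2.51% of all genes). In 17 members all IUGR F2 pools lay below control (8.12% of all genes), and in 2 above it (5.29%). Among genes in the members' range of levels, 60.2% lay lower, 6.75% were lower at an unadjusted p under 0.05 and 12.4% without overlap. Mrpl27 stood at 10.05, 10.17 and 10.03 in IUGR F2 and at 10.33, 10.33 and 10.20 in control pools, a difference of -0.21 ± 0.07 (limma adjusted p = 0.647). Mrpl40 stood at 7.99, 7.96 and 7.79, against 8.18, 8.13 and 8.13 in control pools, a difference of -0.23 ± 0.09 (limma adjusted p = 0.677). Neither gene overlapped between the groups. Mrpl54 and Mrpl10, the base of the stalk that carries Mrpl12, differed by -0.26 ± 0.10 and -0.19 ± 0.07. The highest were Mrps9 (0.17 ± 0.14), Mrps21 (0.11 ± 0.09), Mrps23 (0.09 ± 0.08) and Mrpl55 (0.08 ± 0.07). Without control pool 1, or without IUGR F2 pool 12, 2 members in place of 9 were lower at an unadjusted p under 0.05.

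IUGR F2 pools were also lower than those of the exposed IUGR F1 males in 56 of 76 members (58.1% of all genes), with a median of -0.07 in both subunits, against -0.029 over all genes and -0.002 over those in the members' range of levels. Without IUGR F1 pool 4 the medians were -0.0387 in the large and -0.0286 in the small subunit, and with the actin covariate -0.047 and -0.0487. Markers of several cell types moved with this comparison: endothelial genes lay lower in 8 of 8 (median -0.27), stellate cell genes in 7 of 8 (-0.34) and muscle genes in 9 of 9 (-0.15), and Kupffer cell genes lay higher in 10 of 10 (0.25). Their part in the members' difference was not tested. No member was called (limma), and 2 of all genes were (0.011%). At an unadjusted p under 0.05, 9 members were lower and 0 higher (7.16% and 4.28% of all genes), and 17 lay lower without overlap (12% of all genes). Mrpl27 stood at 10.05, 10.17 and 10.03 in IUGR F2, against 10.36, 10.34 and 10.35 in IUGR F1 pools 4, 5 and 6. Its IUGR F1 pools were nearly identical, and the difference was -0.27 ± 0.07 (limma adjusted p = 0.218). Mrpl40, Mrpl49 and Mrpl14, whose human counterpart binds an assembly factor that keeps the subunits apart, differed by -0.26 ± 0.09, -0.30 ± 0.11 and -0.29 ± 0.11, each without overlap. Mrpl51, Mrps9, Mrps21 and Mrpl52 lay higher by 0.08 to 0.19. The count of 9 was 4 without IUGR F1 pool 4 or IUGR F2 pool 12 and with the actin ratio as a covariate. Mrpl27 and Mrpl40 thus stood below the F1 groups in both F2 groups, and each of these comparisons rests on its own F1 and F2 pools. Both genes were named for their small p in these same comparisons, and neither was called.

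Among the exposed males, subunit medians lay close to those of control. In IUGR F1 against control, 36 of 76 members lay lower and 40 higher, where 47.7% of all genes lay lower, with medians of 0.006 and 0.002 in the large and small subunit. Of the genes in the members' range of levels, 63% lay lower, with a median of -0.034, below the medians of both subunits. No gene was called (0 of 18193, 0%, limma). At an unadjusted p under 0.05, 1 member was higher and 0 lower (5.46% and 2.97% of all genes), and 5 members lay lower and 6 higher without overlap (5.89% and 8.59%). That 1 member was Mrpl55, a large-subunit protein, with levels of 7.99, 7.84 and 7.97 in IUGR F1 pools, against 7.75, 7.82 and 7.76 in control pools. Its difference was 0.16 ± 0.07 (limma adjusted p = 0.569). Mrpl14, Mrps24 and Mrpl3 had differences of 0.20 ± 0.11, 0.14 ± 0.08 and 0.13 ± 0.08. Mrpl18, Mrpl9, Mrps15 and Mrpl33 lay lowest, between -0.19 and -0.15, with errors of 0.08 to 0.11. With probe sets averaged per gene, Mrpl9, Mrps15 and Mrpl33 differed by only -0.0345, -0.0456 and -0.0212. Mrps24 and Mrpl3 differed by 0.0179 and 0.0387 in that setting. With array medians subtracted 51 members lay lower, and after another quantile normalization 17 did, so the direction of the whole set is not settled here. Kupffer cell genes lay lower in 10 of 10 (median -0.51), 6 of them at an unadjusted p under 0.05. Muscle genes lay higher in 8 of 9 (median 0.25), 3 of them at such a p, with the high values in pool 5. The part of these cell types was not tested.

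In ON F1 against control, 47 of 76 members lay lower, against 45% of all genes, with medians of -0.02 in the large and -0.03 in the small subunit (0.019 over all genes, -0.034 over those in the members' range of levels). No member was called (limma), and 4 of all genes were (0.022%). At an unadjusted p under 0.05, 10 members were lower and 1 higher (5.03% and 8.97% of all genes), and 8 lay lower and 2 higher without overlap (6.23% and 10.2%). Of the genes in the members' range of levels, 60.2% lay lower, 9.07% lay lower at such a p and 11% without overlap. The members' own shares were close to these or a little higher, at 61.8%, 13.2% and 10.5%. Mrps15 stood at 9.08, 9.12 and 9.21 in ON F1, against 9.36, 9.35 and 9.45 in control pools, a difference of -0.25 ± 0.08 (limma adjusted p = 0.199). Mrpl20, which binds the large ribosomal RNA, stood at 9.18, 9.10 and 9.09 in ON F1, against 9.34, 9.30 and 9.36 in control pools, a difference of -0.21 ± 0.07 (limma adjusted p = 0.233). Neither overlapped between the groups. With probe sets averaged per gene Mrps15 differed by -0.109, and a further set of opposite sign differed by 0.04 ± 0.14. In all, 11 members had a further set of opposite sign with an unadjusted p under 0.05 on either. The brightest of these, for Mrps24 at a mean of 9.15, differed by -0.35 ± 0.12, against 0.03 ± 0.08 for the chosen one. Mrpl38 differed by -0.29 ± 0.09, although its pools overlapped and the mean of its probe sets turned the sign (0.0047), and Mrpl10 by -0.18 ± 0.07. The 1 member that lay higher at that p was Mrpl46, at 8.51, 8.44 and 8.51 in ON F1 and 8.33, 8.23 and 8.38 in control pools, a difference of 0.18 ± 0.07 (limma adjusted p = 0.296). Mrpl44, a relative of ribonuclease III, Mrpl49 and Mrpl15 had differences of 0.17 ± 0.08, 0.14 ± 0.11 and 0.13 ± 0.09. The split of lower members changed to 25 of 76 after another quantile normalization and to 59 without ON F1 pool 7, and 4 had an unadjusted p under 0.05 without control pool 3. Bile duct genes lay higher in 7 of 7 (median 0.26), 4 of them at an unadjusted p under 0.05, and their part was not tested.

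Between the exposed groups, IUGR F1 against ON F1, 52 of 76 members lay higher and 24 lower (47.7% and 52.3% of all genes), with medians of 0.03 and 0.07 in the large and small subunit. Over the genes in the members' range of levels, 50.2% lay lower, with a median of -0.0005. The count of lower members ran from 11 without ON F1 pool 7 to 35 without IUGR F1 pool 4, and without that IUGR F1 pool the large-subunit median turned to -0.00118. Kupffer cell genes lay lower in 10 of 10 (median -0.34) and bile duct genes in 6 of 7 (-0.21), and muscle genes lay higher in 8 of 9 (0.13). The part of these cell types was not tested. No member was called (limma), and 2 of all genes were (0.011%), while 1 member was higher and 0 lower at an unadjusted p under 0.05 (2.4% and 3.95% of all genes). That member was Mrpl20, at 9.41, 9.33 and 9.15 in IUGR F1 and 9.18, 9.10 and 9.09 in ON F1 pools, a difference of 0.17 ± 0.07 (limma adjusted p = 0.75), and its pools overlapped. Mrpl38, Mrps31 and Mrpl55 had differences of 0.19 ± 0.09, 0.13 ± 0.08 and 0.12 ± 0.07. Mrps25, Mrpl36, Mrpl33 and Mrps33 lay lowest, between -0.14 and -0.11, with errors of 0.08 to 0.10. Only 1 member lay lower and 1 higher without overlap (5.85% and 4.09% of all genes).

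The interaction asked whether the step between generations differed between the lineages, as F2 minus F1 in IUGR less F2 minus F1 in ON. No member was called (limma), 2 of all genes were (0.011%), and 56 of 76 members had a positive value (50% of all genes), with a median of 0.054, the same as over the genes in their range of levels (0.054). An unadjusted p under 0.05 was found in 3 positive and 0 negative members (4.53% and 3.18% of all genes). Among the 5449 genes in the members' range of levels, 3448 had a positive value, and 6.75% of the 5449 were positive at such a p. Mrpl36, a very small protein of the large subunit, had 0.35 ± 0.13 (limma adjusted p = 0.557), Mrps25 0.38 ± 0.15 (limma adjusted p = 0.571) and Mrpl47 0.25 ± 0.10 (limma adjusted p = 0.582). Mrpl36 stood at 8.30, 8.25 and 8.17 in IUGR F2, at 7.98, 7.92 and 8.12 in ON F2, with 8.31, 8.10 and 8.09 for IUGR F1 pools and 8.41, 8.26 and 8.18 for ON F1 pools. It was lowest on average in ON F2, and its pools overlapped among the other groups. For Mrpl47 the mean of its probe sets turned the sign, to -0.0709.

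Across all 5 groups, an F test called 34 of 18193 genes (0.187%) and no member (limma). Its unadjusted p was under 0.05 in 20 members, where 18% of all genes had such a p. Mrpl27 had the smallest adjusted p, 0.0919 (limma F test), followed by Mrpl40 at 0.126, Mrpl46 at 0.135 and Mrpl47 at 0.139. Mrpl27 averaged 10.08 ± 0.08 in IUGR F2, 10.10 ± 0.04 in ON F2, 10.35 ± 0.01 in IUGR F1, 10.37 ± 0.06 in ON F1 and 10.29 ± 0.08 in control pools (SD, n = 3 each). In the order of its means, both F2 groups came lowest and ON F1 highest, and neither the F2 groups nor the F1 groups differed from each other beyond their SDs.

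The members also differed in how far they spread over the 15 pools. Mrpl23 (SD 0.19), Mrps9 (0.19), Mrpl49 (0.18) and Mrpl45 (0.17) spread most. Mrpl23 and Mrpl45 were lowest on average in ON F2 pools, and Mrpl49 averaged 7.53 ± 0.11 in IUGR F2 and 7.59 ± 0.17 in ON F2, against 7.82 ± 0.11 in IUGR F1, 7.88 ± 0.19 in ON F1 and 7.74 ± 0.03 in control pools (SD, n = 3 each). Mrps9 varied within groups instead: its lowest values were 6.94 in IUGR F1 pool 5 and 6.92 in ON F1 pool 8. Mrpl2 (0.061) and Mrps2 (0.068), relatives of core bacterial ribosomal proteins, spread least.

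Some members have roles of their own. Mrps12, part of the decoding centre, stood at 9.59 ± 0.05 in ON F2 and 9.72 ± 0.04 in control pools, a difference of -0.13 ± 0.07, without overlap. Mrps22, whose loss of function causes a mitochondrial disease in humans, stood at 8.75 ± 0.07 in ON F2 and 9.00 ± 0.12 in control pools, a difference of -0.26 ± 0.10 (limma adjusted p = 0.256). Mrps27, a pentatricopeptide repeat protein that binds RNA, differed by -0.25 ± 0.09 and Mrpl44 by -0.03 ± 0.08. Mrps18a and Mrps30 carry small-subunit symbols but sit in the large subunit in solved structures, and counting them there left both ON F2 medians at -0.151 and -0.172. Mrps30 differed by -0.10 ± 0.08 in ON F2. Mrps36, later assigned to the oxoglutarate dehydrogenase complex rather than the ribosome, differed by -0.15 ± 0.11. Probe sets shared between Mrpl30 and Gm6238, Mrps34 and Nme3, and Mrpl53 and Ccdc142 named no gene here, so Mrpl30 and Mrpl53 are not among the 76.

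Around the ribosome itself, 8 lists of related genes were read in the same fits. Of 4 further mitoribosomal proteins outside the Mrpl and Mrps names (Dap3, Ptcd3, Chchd1 and Gadd45gip1), 4 lay lower in ON F2 than in control, with a median of -0.13. Gadd45gip1 stood at 7.55, 7.62 and 7.67 in ON F2, against 8.12, 7.89 and 7.88 in control pools, a difference of -0.35 ± 0.08 (limma adjusted p = 0.128). For the 11 translation factors, 9 lay lower, with a median of -0.12. Mtrf1l, a release factor, stood at 5.63, 5.17 and 5.48 in ON F2, against 5.80, 5.93 and 6.00 in control pools, a difference of -0.48 ± 0.12 (limma adjusted p = 0.134). Of 26 ribosome assembly genes 20 lay lower (median -0.09), of 16 mitochondrial tRNA synthetases 12 (median -0.06), and of 15 genes of mitochondrial transcription and RNA handling 13 (median -0.19). Clpp, a matrix protease needed for ribosome assembly in mice, differed by -0.29 ± 0.08, the tyrosyl-tRNA synthetase Yars2 by -0.30 ± 0.09 and the RNA-binding protein Slirp by -0.31 ± 0.09.

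Respiratory chain subunits, some of whose partners the mitochondrial ribosome makes, lay lower in 46 of 55 genes, with a median of -0.08. Among them Ndufs4 of complex I differed by -0.27 ± 0.08. Cytosolic ribosomal proteins, 42 of 74 of which were measured, lay lower in 28, with a median of -0.04. The 10 regulators of mitochondrial biogenesis lay lower in 3, with a median of 0.09. The highest by p was Nrf1, which encodes the factor that binds the NRF1 motif, at 5.57 ± 0.09 in ON F2 and 5.27 ± 0.07 in control pools, a difference of 0.30 ± 0.10 (limma adjusted p = 0.212). No gene of these lists was called in any comparison against control (limma). In ON F2 against control, 9.26% of all genes, and 19.5% of those in the members' range of levels, were lower at an unadjusted p under 0.05. Such a p was found for 2 of 4 other mitoribosomal genes, 4 of 11 translation factors, 7 of 26 assembly genes, 3 of 16 synthetases and 7 of 15 transcription and RNA genes. It was found for only 3 of 55 respiratory chain subunits, 1 of 42 cytosolic ribosomal genes and 0 of 10 regulators. In the other direction, 1 of 42 cytosolic ribosomal genes and 2 of 10 regulators were higher, against 5.89% of all genes.

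**Figure D5:**
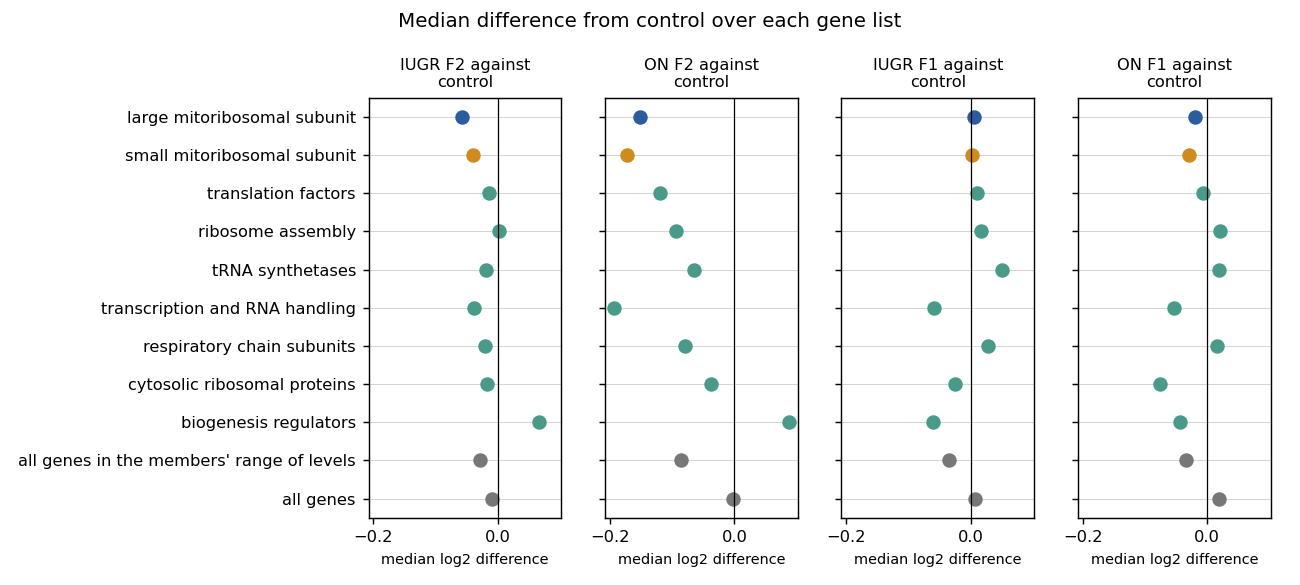
Median log2 difference from control of the large and small subunit, 7 lists of related genes, all genes in the members' range of levels and all genes, in IUGR F2, ON F2, IUGR F1 and ON F1 (panels, left to right). In ON F2 the small subunit (-0.17) and the transcription and RNA list (-0.19) lie lowest, the biogenesis regulators lie above 0 (0.09), and all genes lie at -0.003; each panel uses the same 3 control pools.

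A single gene of these 8 lists was called in the 8 pairwise comparisons, between the generations of the IUGR lineage. Mtif2, the mitochondrial translation initiation factor that brings the initiator tRNA to the ribosome, stood at 7.96, 8.03 and 8.14 in IUGR F2 pools, against 7.40, 7.43 and 7.38 in IUGR F1 pools. The groups lay far apart for this set of genes, and the rise was 0.64 ± 0.09 (limma adjusted p = 0.037). Control pools stood between, at 7.52, 7.80 and 7.83, ON F2 pools at 7.54, 7.45 and 7.46, and ON F1 pools at 7.52, 7.46 and 7.67. Against control the IUGR F2 difference was 0.33 ± 0.09 (limma adjusted p = 0.585) and the IUGR F1 difference -0.32 ± 0.09 (limma adjusted p = 0.432). The rise stayed between 0.59 and 0.68 under all alternatives, but the call was lost without any single pool of either group (limma adjusted p between 0.118 and 0.2), without control pool 2 or ON F2 pool 14 or 15 (between 0.0562 and 0.0811), with the actin ratio as a covariate (0.0762), with only those 6 arrays in the fit (0.0506) and without pools 5, 8 and 13 together (0.136).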

How the data were processed

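The 15 samples are whole-liver RNA pools from adult male mice, each on an Affymetrix mouse genome array. Deposited levels are on the log2 scale, 1 per probe set. The authors used RMA, according to the submitters' processing notes, with no version given in the sources used here. RMA corrects background, normalizes arrays by quantiles and summarizes probes. That the scale is log2 follows from the range of the deposited values, and the number of arrays limits the precision. Of 45101 probe sets, 64 controls were left out, 34945 had 1 gene symbol and 932 several. Groups and pool numbers came from the labels, which give no batch or date, and no 2 arrays held identical values.

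Tests used limma 3.58.1 under R 4.3.3. A single linear model held the 5 group means, with empirical Bayes moderation (prior degrees of freedom 4.69, residual 10) and two-sided tests, with Benjamini-Hochberg adjustment over 18193 genes. The fit was tested on simulated data first, with planted differences larger than any found here for a member. That test therefore does not show how well differences of the members' size are detected. The median SE of a member's difference was 0.0817. The members, gene lists and tests were chosen with earlier results of these data known. Members named with values were the 4 of smallest p in each direction and comparison, the 4 of smallest F test p, the 4 of largest and 2 of smallest SD, those with known roles of their own, and, for ON F2, those whose probe sets ran opposite ways, which occurred in 26 members over all comparisons. The rule also took members of highest and lowest level, which are not ranked here because levels of different probes cannot be compared. Mrpl45 and Mrps14 in ON F2 against control, Mrps31 there and Mrps27 were chosen after their values were seen. The 8 pathway lists held 218 entries, of which 179 were measured, and 9 lists of cell type markers were read as checks. List sums over linear levels serve only to compare pools. Alternatives were probe sets averaged per gene, a minimum mean of 5, array medians subtracted, another quantile normalization, a trended robust variance, the arrays of both groups only, the actin ratio or Dbp as a covariate, each pool left out, and, added after seeing the data, pools 5, 8 and 13 left out together.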

Additional observations from a re-analysis of the deposited data

How the results depend on the processing

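No paired analysis was possible because the labels number the pools from 1 to 15 without repeating a number between groups. Of the 10 counts of called members, only that of ON F2 against ON F1 left 0: it was 1 with probe sets averaged per gene, 4 with a minimum mean of 5, 4 with array medians subtracted, 2 with a trended robust variance, and 0 to 1 with single pools left out (1 without ON F1 pool 9). Median differences moved by more than the spread between pools in a few cases. In ON F2 against control the large-subunit median was -0.203 with array medians subtracted and -0.0844 after another quantile normalization, and the small-subunit median was -0.224 and -0.0878 there and -0.123 on the mean of probe sets. In IUGR F2 against control the large-subunit median was -0.0273 after another quantile normalization, -0.0261 with the actin covariate and -0.0946 to -0.0485 with single pools left out. In IUGR F1 against control the medians became 0.0651 and 0.0647 after another quantile normalization, and the small-subunit median ran from -0.0446 to 0.0239 with pools left out. In ON F1 against control the large-subunit median became 0.051 after that normalization. Array medians subtracted moved the median of all genes by at most -0.0525 (ON F2 against control).

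Of 1672 alternative values of named members, 13 changed sign (limma adjusted p 0.823 or more in each). On the mean of probe sets these were Mrps10 in ON F2 against control (0.0516), Mrpl38 in ON F1 against control (0.0047), Mrpl49 and Mrpl27 in IUGR F2 against ON F2 (0.0723 and 0.0232) and Mrpl47 in the interaction (-0.0709). With array medians subtracted they were Mrpl12 in ON F2 against control (-0.0375) and Mrpl27, IUGR F2 against ON F2 (0.00751), and with the Dbp covariate Mrpl36 in IUGR F1 against ON F1 (0.000311). With single pools left out, Mrpl27 and Mrpl14 in IUGR F2 against ON F2 ran from -0.0634 to 0.00804 and from -0.0614 to 0.0196, turning without pool 12. Mrpl49 ran from -0.122 to 0.0353 there, turning without pool 15. Mrps15 in ON F2 against ON F1 ran from -0.0166 to 0.108, turning without pool 13, and was -0.0251 without pools 5, 8 and 13, a setting chosen after seeing the data. The cause of these changes was not tested. A difference at the median SE of 0.0817 needs to be several times that size to be called, and RMA narrows differences between dim probe sets. Over all genes, 261 calls in ON F2 against ON F1 became 3 with the Dbp covariate, 19 without ON F1 pool 7, 48 without pools 5, 8 and 13 and 439 with array medians subtracted. The 0 calls in ON F2 against control became 48 with array medians subtracted, and the 34 of the F test became 7 without IUGR F1 pool 6, 8 with the Dbp covariate and 64 with array medians subtracted.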
